A study of Mus musculus with 15 samples.

Results

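The genes described here are the machinery of the interferon response and of antigen presentation on major histocompatibility complex (MHC) class I in NMuMG cells, a mouse mammary gland epithelial line, after knockdown of the RNA-binding protein PCBP1 and knockout (KO) of the secreted factor FAM3C or the leukemia inhibitory factor receptor LIFR. The list held 39 genes, taken by gene name, and 38 of them had a row in at least 1 dataset. There were 34 among the 13893 genes of dataset 1 and 38 among the 15023 genes of dataset 2, and Mx2 had no row in either. Dataset 2 compared 2 libraries of NMuMG cells (genotype Wild type, treatment None) with 2 libraries of NMuMG shPCBP1 cells, in which a short hairpin RNA lowered PCBP1. The paper names shSCR cells, with a non-targeting hairpin, as the comparison for this dataset, whereas the labels name no hairpin for the controls. If the controls carried none, effects of transduction and selection cannot be told apart from loss of PCBP1. All 11 lines of dataset 1 carried the shPCBP1 knockdown. They were 4 shPCBP1 lines (3 CT clones, which received Cas9 without gene-specific guides, and the parental line, here line 4), 3 FAM3C KO clones (genotype FAM3C -/-), 3 LIFR KO clones (genotype LIFR -/-) and 1 FAM3C/LIFR double KO. Each clone grew from a single colony and gave 1 RNA sample, so clonal differences and the KO cannot be told apart within a clone. Values are CPM, read counts scaled to a common library size, set separately in each dataset, so tests were made only within a dataset.

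Interferons bind receptors that signal through JAK kinases to a complex that holds STAT2 and IRF9, which switches on genes that carry an interferon-stimulated response element (ISRE). The products include the IFIT proteins, which bind viral RNA, the kinase PKR (gene Eif2ak2), which stops translation, and IRF1, which itself drives class I genes. For antigen presentation, proteasomes cut proteins into peptides, TAP1 and TAP2 pump the peptides into the endoplasmic reticulum, tapasin (Tapbp) helps load them, and the heavy chains H2-K and H2-D carry them to the surface with beta-2-microglobulin (B2m). Epithelial cells hold a low resting level of this pathway without an infection.

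The labels were checked against the targeted genes. Pcbp1 stood at 287 and 312 CPM in the control libraries and at 14.1 and 14.2 CPM in the shPCBP1 libraries of dataset 2, and at 19.9 to 39.5 CPM across dataset 1. Fam3c was 26.4 to 42.9 CPM in FAM3C KO clones against 47.0 to 59.4 CPM in shPCBP1 lines, and Lifr was 34.9, 29.3 and 14.6 CPM in LIFR KO clones 1 to 3 against 25.8 to 40.2 CPM. Lifr was also 10.5 to 19.2 CPM in FAM3C KO clones, below LIFR KO 1 and 2, and the double KO held 42.3 CPM of Fam3c and 4.36 CPM of Lifr. The guide pairs cut a short piece out of the coding sequence, so a transcript need not fall, and these levels do not by themselves tell the KO groups apart. Libraries of LIFR KO 2, LIFR KO 3 and the double KO stood apart: the rank correlation across genes between a gene's deviation and its GC content was -0.76, -0.75 and -0.70, against -0.29 to 0.24 in the other 8, and mitochondrial genes took 7.16% to 8.58% of CPM against 3.14% to 4.06%. Of 10 leukocyte markers, 7 had a row in dataset 2 and summed to 2.77 to 2.90 CPM in controls and 2.88 to 3.41 CPM in shPCBP1 cells. The 5 with a row in dataset 1 summed to 7.22 to 14.3 CPM over the KO clones and 10.7 to 13.2 CPM in shPCBP1 lines. The pan-leukocyte gene Ptprc did not exceed 0.0355 CPM in dataset 2 and had no row in dataset 1. Cd68, of the same marker list, went from a mean of 1.09 CPM in controls to 1.66 CPM in shPCBP1 cells of dataset 2. It was called higher there (log2 fold change 0.56, adjusted p = 0.00281 by limma). Csf1r was level, at means of 1.21 and 1.20 CPM. In dataset 2, mitochondrial genes took 6.63% to 6.84% of CPM in controls and 4.75% to 4.81% in shPCBP1 cells, and 0.0001 CPM stood where a gene had no signal. If the lowest value of a dataset 1 library is worth 1 read, the libraries held 16031859 (shPCBP1 line 4) to 46901675 (shPCBP1 line 1) reads. On the same reasoning the dataset 2 libraries held 53032111 to 56496537 reads.

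Several classical interferon-induced genes stayed under 1 CPM in every group, while Ifit2, Eif2ak2 and the class I genes were well detected in at least 1 group. In dataset 2, 20 of 38 members reached 1 CPM in any library and 13 stayed under 0.5 CPM in all of them. In dataset 1, 24 of 34 reached 1 CPM in some library. Isg15, a ubiquitin-like modifier, stayed at or below 0.656 CPM in all 15 libraries. Rsad2, which encodes viperin, did not exceed 0.515 CPM, and Oasl2 did not exceed 0.354 CPM. Mx1, an antiviral GTPase, reached 0.0886 CPM at most in dataset 2. Of 9 interferon ligand genes only Ifnk had a row, in dataset 1, at 0.722 to 1.87 CPM. The immunoproteasome subunits Psmb8 and Psmb9 did not exceed 0.0555 CPM in dataset 2. By contrast, per kilobase of the longest GENCODE transcript B2m was the most abundant member in each group, with mean levels of 76.3 ± 7.18 CPM per kb (SD, n = 4) in shPCBP1 lines and 39.8 ± 3.77 CPM per kb (SD, n = 2) in NMuMG controls. H2-K1, at 21.1 ± 1.60 CPM per kb, came next in shPCBP1 lines.

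Promoter windows show which members carry interferon-type letters near their start. RefSeq windows (GRCm38.p6) from 250 bases before to 50 bases after the start were found for 31 of the 39 members. An ISRE core (GAAANNGAAA on either strand) was present in 13 of these 31, against 3.99% of the 27025 genes in the table, and TTCNNNGAA, a STAT-type motif, was present in 10, against 9.55%. The following 10 windows belong to members whose values are given below, 7 with the ISRE core and 3 without, and capitals mark matches to either motif. In order they lie at chr10:128270248-128270547 (Stat2, plus strand), chr8:46739495-46739794 (Irf2, plus), chr2:62646206-62646505 (Ifih1, minus), chr4:40239776-40240075 (Ddx58, minus), chr17:78882523-78882822 (Eif2ak2, minus), chr19:34583279-34583578 (Ifit3, plus), chr2:122147437-122147736 (B2m, plus), chr19:34550444-34550743 (Ifit2, plus), chr11:53769764-53770063 (Irf1, plus) and chr17:35262844-35263143 (H2-D1, plus), each written along its gene.
Stat2: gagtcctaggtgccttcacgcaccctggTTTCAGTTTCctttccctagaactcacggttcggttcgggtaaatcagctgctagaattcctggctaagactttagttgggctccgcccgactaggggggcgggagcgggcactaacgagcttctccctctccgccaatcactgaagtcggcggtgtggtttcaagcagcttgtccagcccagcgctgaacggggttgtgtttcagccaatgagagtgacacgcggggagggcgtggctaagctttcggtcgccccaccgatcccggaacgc
Irf2: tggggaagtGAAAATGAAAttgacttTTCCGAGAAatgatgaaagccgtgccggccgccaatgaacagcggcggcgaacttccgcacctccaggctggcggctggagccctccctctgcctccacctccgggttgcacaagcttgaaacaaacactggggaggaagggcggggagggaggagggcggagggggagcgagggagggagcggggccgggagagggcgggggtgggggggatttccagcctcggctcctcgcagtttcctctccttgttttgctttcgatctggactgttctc
Ifih1: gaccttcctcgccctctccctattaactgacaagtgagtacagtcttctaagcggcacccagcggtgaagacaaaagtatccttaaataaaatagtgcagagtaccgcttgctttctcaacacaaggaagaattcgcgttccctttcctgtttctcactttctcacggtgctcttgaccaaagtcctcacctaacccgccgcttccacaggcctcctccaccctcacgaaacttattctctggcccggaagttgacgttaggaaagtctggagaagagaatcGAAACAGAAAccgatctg
Ddx58: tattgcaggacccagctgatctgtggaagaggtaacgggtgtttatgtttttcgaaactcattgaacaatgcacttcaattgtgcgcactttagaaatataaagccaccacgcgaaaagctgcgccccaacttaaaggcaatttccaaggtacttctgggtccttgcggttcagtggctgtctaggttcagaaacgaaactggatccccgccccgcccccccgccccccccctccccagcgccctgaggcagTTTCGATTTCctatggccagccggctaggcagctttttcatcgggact
Eif2ak2: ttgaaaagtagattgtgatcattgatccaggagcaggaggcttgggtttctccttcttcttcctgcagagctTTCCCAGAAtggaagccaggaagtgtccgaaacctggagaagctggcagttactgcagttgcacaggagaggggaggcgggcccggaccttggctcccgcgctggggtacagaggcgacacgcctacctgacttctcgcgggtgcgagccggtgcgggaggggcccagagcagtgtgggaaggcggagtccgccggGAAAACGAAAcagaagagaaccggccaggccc
Ifit3: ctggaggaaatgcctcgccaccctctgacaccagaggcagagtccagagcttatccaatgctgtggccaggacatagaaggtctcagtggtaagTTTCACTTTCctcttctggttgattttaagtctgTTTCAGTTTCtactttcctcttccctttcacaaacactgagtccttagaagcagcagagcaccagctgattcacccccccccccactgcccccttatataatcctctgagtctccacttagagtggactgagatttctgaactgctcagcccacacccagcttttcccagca
B2m: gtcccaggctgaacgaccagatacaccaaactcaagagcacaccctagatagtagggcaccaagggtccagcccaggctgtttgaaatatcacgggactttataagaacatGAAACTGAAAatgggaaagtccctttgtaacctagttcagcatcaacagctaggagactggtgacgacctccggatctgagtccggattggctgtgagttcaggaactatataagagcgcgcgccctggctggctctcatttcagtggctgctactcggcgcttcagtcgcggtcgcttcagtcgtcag
Ifit2: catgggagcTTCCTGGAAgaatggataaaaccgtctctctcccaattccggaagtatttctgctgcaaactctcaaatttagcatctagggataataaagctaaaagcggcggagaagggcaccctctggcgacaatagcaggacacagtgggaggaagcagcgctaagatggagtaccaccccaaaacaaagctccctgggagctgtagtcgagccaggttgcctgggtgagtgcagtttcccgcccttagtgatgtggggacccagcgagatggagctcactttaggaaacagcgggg
Irf1: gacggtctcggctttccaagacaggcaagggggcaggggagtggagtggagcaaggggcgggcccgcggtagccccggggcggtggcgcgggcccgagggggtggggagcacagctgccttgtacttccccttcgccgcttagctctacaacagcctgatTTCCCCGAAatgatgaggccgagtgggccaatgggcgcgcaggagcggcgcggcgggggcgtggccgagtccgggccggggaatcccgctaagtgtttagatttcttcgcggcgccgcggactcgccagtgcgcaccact
H2-D1: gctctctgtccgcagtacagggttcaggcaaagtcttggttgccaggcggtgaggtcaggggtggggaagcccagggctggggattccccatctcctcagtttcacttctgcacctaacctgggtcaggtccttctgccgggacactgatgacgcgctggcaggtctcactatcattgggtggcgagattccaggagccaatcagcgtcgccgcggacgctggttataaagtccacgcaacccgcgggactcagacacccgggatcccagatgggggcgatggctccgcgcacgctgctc

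The Ifit3 window held 2 ISRE cores, whose first bases lay 156 and 122 bases before the start. The core in B2m lay 139 bases before the start, and those in Ifih1, Ddx58 and Eif2ak2 lay just after it. Ifit2, Irf1 and H2-D1 held no match to the ISRE core in these letters. The single match in Ifit2 and in Irf1 was to the STAT-type motif, 241 and 90 bases before the start. These matches describe the letters only.

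Dataset 2 asked what differs between shPCBP1 cells and NMuMG controls. All 3 MHC class I members tested were called higher, where the same rule called 42.1% of all genes higher and 38.0% lower. H2-D1 was 1.35 and 1.53 CPM in the control libraries and 10.3 and 11.6 CPM in the shPCBP1 libraries, a log2 fold change of 2.85 (SE 0.11) on the log2(CPM + 0.1) scale, adjusted p = 1.13e-09 by limma over all genes tested. H2-K1 stood at 6.73 and 5.41 CPM in controls and at 22.6 and 23.4 CPM in shPCBP1 cells, with a log2 fold change of 1.92 (SE 0.09) and adjusted p = 5.76e-09. Class I heavy chains bind the peptides, and for both the lowest shPCBP1 library lay above the highest control. That also held for 5276 of the 11384 genes tested, and the reverse for 4855. B2m, the shared light chain, changed far less, from 36.6 and 31.96 CPM to 40.3 and 37.2 CPM (log2 fold change 0.18, SE 0.06, adjusted p = 0.0168), and its call was lost in 6 of 14 alternative settings. Nlrc5, the class I transactivator, was under the filter, at no more than 0.019 CPM in controls and 0.0897 and 0.111 CPM in shPCBP1 cells. H2-K1 and H2-D1 resemble each other and the H2-Q genes, and how shared reads were assigned is not stated, so the split between them is uncertain. The related H2-Q4 moved from a mean of 0.582 to 7.15 CPM (log2 fold change 3.42, SE 0.14).

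Psmb10 and Tapbp, the only peptide supply members tested, were also called higher, with smaller changes than H2-K1 and H2-D1. Psmb10, an inducible proteasome subunit, went from 1.91 and 1.85 CPM to 4.70 and 4.49 CPM, a log2 fold change of 1.25 (SE 0.11, adjusted p = 1.00e-06 by limma). Tapbp, tapasin, was 21.2 and 21.03 CPM in controls and 27.0 and 28.6 CPM in shPCBP1 cells (log2 fold change 0.40, SE 0.04, adjusted p = 7.46e-06). The 2 groups did not overlap for either gene, nor did they for 5276 higher and 4855 lower genes of the 11384 tested. Tap1, the peptide pump, was below the filter of a mean of 0.5 CPM and had no test, at 0.0178 and 0.019 CPM in controls and 0.645 and 0.518 CPM in shPCBP1 cells. Of the constitutive proteasome subunits that Psmb8, Psmb9 and Psmb10 replace, 1 of 3 was called, Psmb6, with a log2 fold change of 0.28 (SE 0.05). In the wider class I list, 6 of 10 tested genes were called higher and 3 lower, against 42.1% and 38.0% of all genes, and the largest fall was in H2-T23, a nonclassical class I gene, from 3.36 to 1.15 CPM.

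Among the induced effectors the direction split. Ifit2 fell from 30.6 and 30.9 CPM in controls to 9.70 and 10.1 CPM in shPCBP1 cells, a log2 fold change of -1.63 (SE 0.05, adjusted p = 1.66e-10 by limma). Ifit3 fell from 5.31 and 4.51 CPM to 0.842 and 0.887 CPM, a log2 fold change of -2.37 (SE 0.13, adjusted p = 2.17e-08). Both encode RNA-binding antiviral proteins. Ifit3 shares sequence with Ifit3b, whose mean went from 5.21 to 0.430 CPM, so the pair cannot be read as separate genes. Parp14, an ADP-ribosyltransferase, was 0.0178 and 0.0944 CPM in controls and 1.79 and 1.64 CPM in shPCBP1 cells (log2 fold change 3.59, SE 0.24, adjusted p = 1.09e-07). Parp14 passed the filter only through its shPCBP1 libraries, so a difference was bound to appear. Bst2, which encodes tetherin, had a mean of 1.96 CPM in controls and 6.11 CPM in shPCBP1 cells, a log2 fold change of 1.59 (SE 0.10). Ifi35 and Ifi27 were called higher, with log2 fold changes of 0.63 and 0.71, and Isg20, an RNA exonuclease, was called lower at -0.44. Ifit1, which lies beside Ifit2 and Ifit3 on chromosome 19, was under the filter, at 0.443 and 0.943 CPM in controls and 0.341 and 0.240 CPM in shPCBP1 cells.

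Of the 6 regulators tested, 2 were called higher and 1 lower, and of the 3 sensor and kinase genes, 1 and 2. The same rule called 42.1% of all genes higher and 38.0% lower. Irf1 rose from 12.1 and 12.2 CPM in controls to 20.5 and 19.4 CPM in shPCBP1 cells, a log2 fold change of 0.71 (SE 0.05, adjusted p = 2.60e-07 by limma). Irf2, a related factor that can oppose IRF1, was 8.37 and 7.45 CPM against 10.2 and 10.5 CPM (log2 fold change 0.38, SE 0.08, adjusted p = 7.99e-04). Stat2 was lower, at 21.9 and 20.6 CPM against 16.99 and 17.02 CPM (log2 fold change -0.32, SE 0.05, adjusted p = 1.12e-04). Irf3, Irf5 and Irf9 were tested and not called. Ifih1, the double-stranded RNA sensor MDA5, went from 2.78 and 2.55 CPM to 1.99 and 1.74 CPM (log2 fold change -0.49, SE 0.13, adjusted p = 0.00406). Eif2ak2 went from 30.3 and 31.9 CPM to 24.2 and 23.9 CPM (log2 fold change -0.37, SE 0.04, adjusted p = 7.91e-06). Ddx58, the sensor RIG-I, was 5.03 and 4.87 CPM in controls and 5.57 and 5.77 CPM in shPCBP1 cells (log2 fold change 0.19, SE 0.09, adjusted p = 0.0596), inside the threshold of 0.07 and outside 0.05.

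Over the list, 21 of the 38 members passed the filter in dataset 2, with 12 called higher and 6 called lower at adjusted p under 0.07, the threshold the study used. The same rule called 42.1% of the 11384 genes tested higher and 38.0% lower, so the members' shares are to be read against a very large background. Their median log2 fold change was 0.30, against 0.02 over all genes tested. The 17 members under the filter were Irf7, Irf8, Isg15, Ifit1, Oasl2, Oas1a, Mx1, Usp18, Rsad2, Ifi44, Rtp4, Gbp2, Psmb8, Psmb9, Tap1, Tap2 and Nlrc5, none of which reached 1 CPM in a dataset 2 library. With a fold change of at least 1.5 also required, 10 members remained called against 31.1% of all genes, and without the filter 26 of 38 were called against 67.7%. Upstream of the members, 7 of 14 receptor and JAK-STAT genes were called lower and 2 higher. Ptpn6, Tyk2 and Ifnlr1 had log2 fold changes of -1.40, -0.94 and -0.77. In the sensing pathway 5 of 11 were called higher and 2 lower, with Ikbke at -1.41, Tmem173 (STING) at 1.29 and Mb21d1 (cGAS) at 0.94. Of 28 other interferon-induced genes tested, 8 were called higher and 13 lower. Parp12 was listed at 0.0001 CPM in both controls and stood at 6.58 and 6.08 CPM in shPCBP1 cells, Ifit3b had a log2 fold change of -3.38, and Tgtp1 one of 2.46. Ptpn6, Parp12, Ifit3b and Tgtp1, like Parp14, passed the filter only through the group where they were high, so their differences were bound to appear. In the same comparison all 5 mesenchymal markers tested were higher, with Fn1 at a log2 fold change of 3.45. Of the 3 epithelial markers tested, Cdh1 was lower at -0.65, Krt8 was at -0.07, and Krt18 was called higher at 0.08. The epithelial markers summed to 2441 to 2475 CPM in controls and 2340 to 2389 CPM in shPCBP1 cells. Their part in the result was not tested. With 2 libraries a group, p-values measure only the spread between these libraries, and whether they came from separate cultures is not stated. In bulk RNA, fewer cells of a kind and less RNA per cell cannot be told apart.

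**Figure D1:**
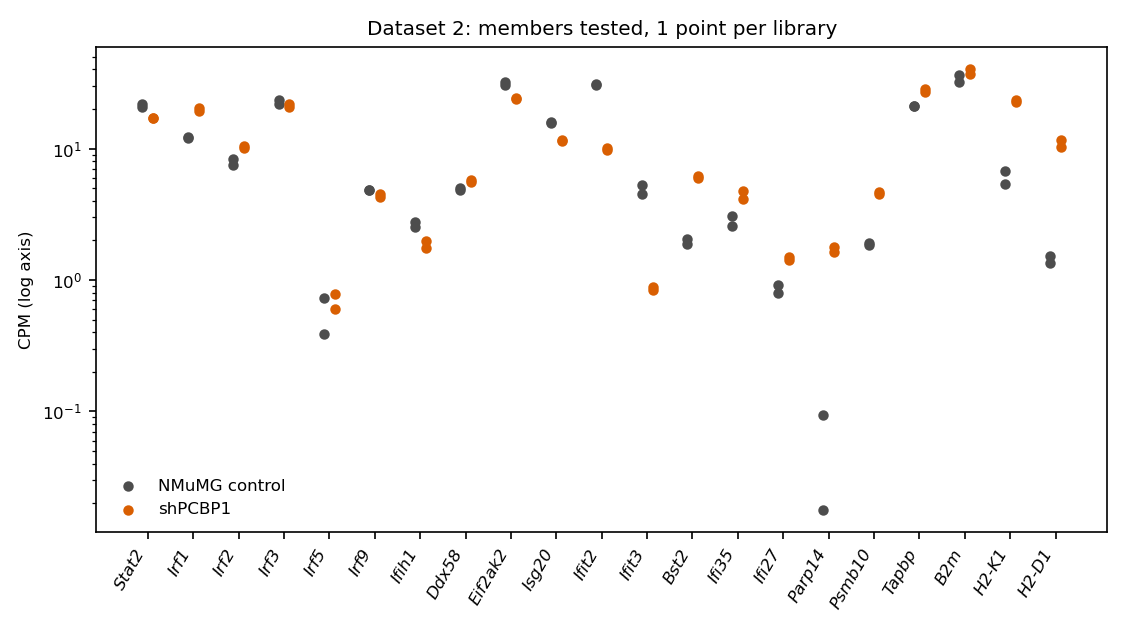
Expression in CPM (log axis) of the members tested in dataset 2, with 1 point per library and NMuMG controls in grey, shPCBP1 cells in orange. H2-D1, H2-K1, Bst2, Psmb10 and Parp14 sit higher in shPCBP1 cells, and Ifit2 and Ifit3 sit lower, with 30.6 and 30.9 CPM against 9.70 and 10.1 CPM for Ifit2.

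The question in dataset 1 was how the shPCBP1 state depends on FAM3C and LIFR. No member passed the test in FAM3C KO, and H2-D1 had the lowest log2 fold change of the members tested. H2-D1 was 7.84, 6.04 and 12.5 CPM in FAM3C KO clones 1 to 3 and 28.3, 22.3, 19.03 and 22.3 CPM in shPCBP1 lines 1 to 4. The highest clone lay below the lowest line. The log2 fold change was -1.43 (95% interval -2.13 to -0.72), and with the 3 groups fitted together the adjusted p by limma was 0.124, above the threshold. Fitted with only these groups the adjusted p was 0.0140, and with a correction for GC content it was 0.0595, both under 0.07. H2-K1 was 29.7, 22.6 and 29.3 CPM against 38.0, 37.2, 43.9 and 38.98 CPM, again without overlap (log2 fold change -0.55, SE 0.20, adjusted p = 0.367). B2m was 79.0, 83.0 and 77.5 CPM against 71.4, 56.9, 67.7 and 66.5 CPM, higher in every clone than in every line (log2 fold change 0.29, SE 0.16, adjusted p = 0.611). Tapbp was 40.3, 15.7 and 48.4 CPM against 49.3, 51.2, 58.0 and 50.3 CPM (log2 fold change -0.73, SE 0.34, adjusted p = 0.501), with clone 2 far below the other clones.

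Sensor genes differed in direction without passing the test. Eif2ak2 stood at 61.6, 51.2 and 57.8 CPM in clones 1 to 3 and at 34.2, 34.1, 37.3 and 42.1 CPM in shPCBP1 lines, with no overlap (log2 fold change 0.62, SE 0.26, adjusted p = 0.446 by limma). Ifih1 was 7.44, 4.52 and 7.38 CPM against 2.64, 3.68, 2.41 and 5.99 CPM, which overlap. Ddx58 was 11.4, 8.48 and 11.7 CPM against 13.9, 14.6, 13.2 and 13.7 CPM, lower in every clone (log2 fold change -0.41, SE 0.17, adjusted p = 0.451). Ifit2 was level, at 24.9, 24.3 and 29.9 CPM against 25.4, 26.0, 25.7 and 27.8 CPM, a log2 fold change of 0.00 with a 95% interval of -0.28 to 0.28. The exact two-sided permutation test over lines gave p = 0.0286 for H2-D1, H2-K1, Eif2ak2, Ddx58 and Tapbp, the smallest p that 4 against 3 lines allow. That p requires groups that do not overlap, which were found for 10.1% of all genes tested as higher and 12.5% as lower. It is not adjusted for the number of members tested.

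None of the 28 members tested was called in this comparison by limma, against 0.0872% of 12621 genes called higher and 0.222% called lower. Unadjusted, Ddx58, Eif2ak2, Ifit3, H2-K1 and H2-D1 had p under 0.05 by limma. The share of all genes under that unadjusted threshold was not counted, so no excess among the members can be read from it. Groups did not overlap for 2 members that were higher and 4 that were lower in FAM3C KO, against 10.1% and 12.5% of all genes tested. With only shPCBP1 and FAM3C KO lines fitted, 3 members were called, H2-D1, H2-K1 and Eif2ak2, against 8.29% of genes. The 6 members under the filter in dataset 1 were Irf8, Isg15, Oasl2, Rsad2, Ifi44 and Tap2. The median log2 fold change of the members was 0.03, and that of all genes tested was -0.01. No gene of the receptor, sensing, other interferon-induced or checkpoint ligand lists was called. The checkpoint ligand Pdcd1lg2, outside the list of members, was 8.37, 5.44 and 9.49 CPM in FAM3C KO clones and 0.0213, 0.0404, 0.0344 and 1.75 CPM in shPCBP1 lines, with shPCBP1 line 4 apart from the other 3. Pdcd1lg2 passed the filter only through the lines where it was high, so a difference was bound to appear. The other ligand, Cd274, was 3.54, 3.16 and 2.80 CPM against 2.64, 2.20, 3.38 and 2.77 CPM, which overlap.

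**Figure D2:**
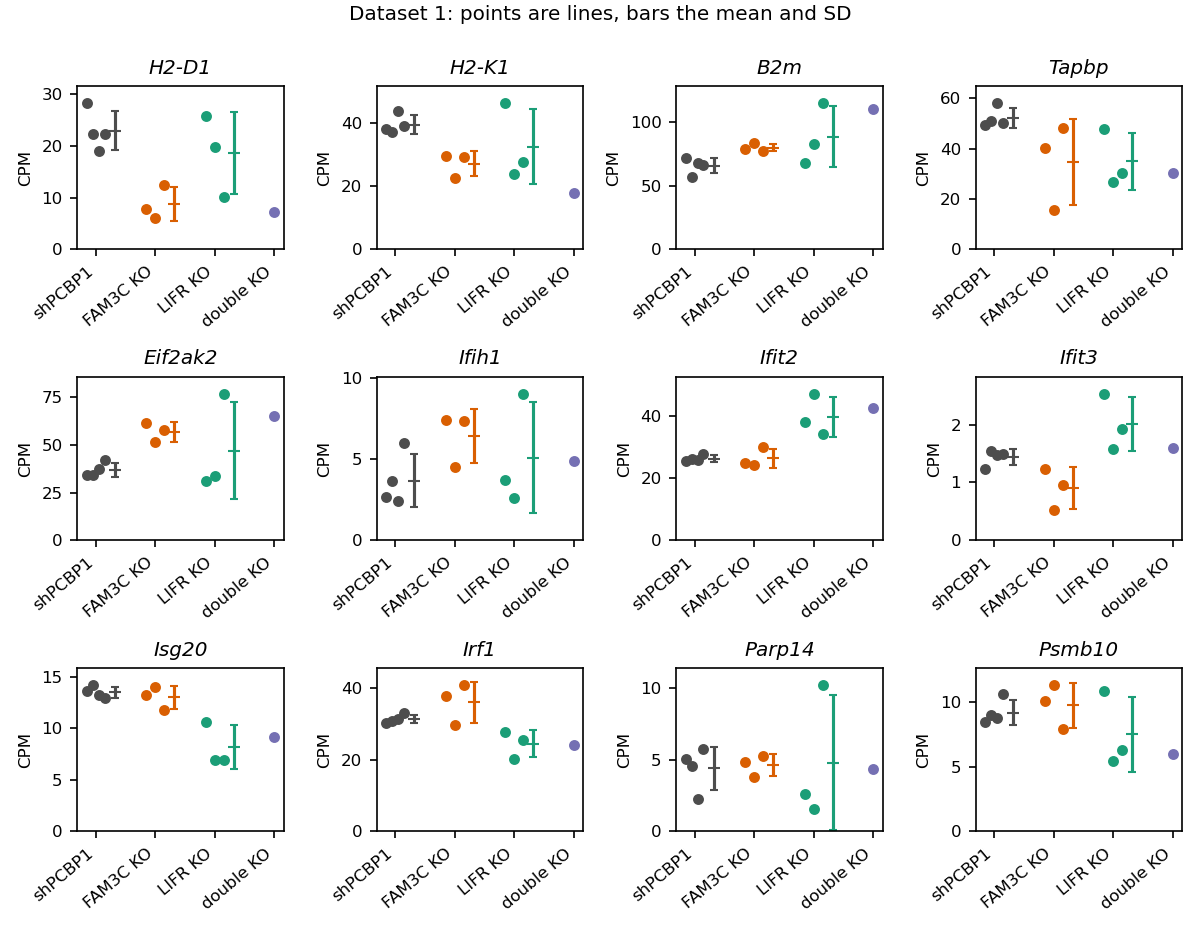
CPM in each line of dataset 1 for 12 members, with points for lines and bars for the mean and SD beside them. The 3 FAM3C KO clones of H2-D1 lie between 6.04 and 12.5 CPM, below all shPCBP1 lines at 19.03 to 28.3 CPM, and LIFR KO clone 3 leaves the other LIFR KO clones for Eif2ak2, Ifih1 and Parp14.

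LIFR KO gave 2 called members, both effectors. Isg20 was 10.6, 6.90 and 6.95 CPM in clones 1, 2 and 3 of LIFR KO and 13.6, 14.2, 13.3 and 13.0 CPM in shPCBP1 lines, a log2 fold change of -0.75 (SE 0.16, adjusted p = 0.0414 by limma). Ifit2 was 37.9, 46.9 and 34.1 CPM against 25.4, 26.0, 25.7 and 27.8 CPM, a log2 fold change of 0.58 (SE 0.13, adjusted p = 0.0437). Neither group overlapped with the lines. The same rule called 0.911% of the 12621 genes higher and 5.55% lower, and groups did not overlap for 2 higher and 6 lower members, against 3.95% and 13.2% of genes. Among these 6, Nlrc5 passed the filter only through the shPCBP1 lines, with a mean of 0.811 CPM against 0.192 CPM in LIFR KO, so a difference was bound to appear. The median log2 fold change over all genes was -0.16, against -0.23 over the members, and the median-ratio rescaling moved the all-gene median by 0.15 and left both calls in place, with Ifit2 at 0.73 and Isg20 at -0.60, while the split of all genes called went from 115 higher and 701 lower to 180 and 308. With a correction for GC content, Ifit2 (42.0% GC) fell to 0.20 (adjusted p = 0.440) and Isg20 (57.4% GC) to -0.38 (adjusted p = 0.0806). With clone 1 as the only LIFR KO sample, which assumes it varies like the other groups, Ifit2 was 0.53 (adjusted p = 0.0982) and Isg20 -0.34 (adjusted p = 0.308), so neither call held. The GC values move with these calls, and their part was not tested. Epithelial markers moved with the LIFR KO group: their summed level was 888 to 1490 CPM against 1751 to 2156 CPM in shPCBP1 lines, Krt18 was called lower (log2 fold change -0.72, adjusted p = 0.0663 by limma), and Krt8 did not overlap (-0.96, adjusted p = 0.0701), while Cdh1 overlapped. Mesenchymal markers summed to 1274 to 1930 CPM in LIFR KO clones and 1768 to 2019 CPM in shPCBP1 lines, which overlap, and none of the 6 was called. The part of either marker list in the result was not tested. Around the members, 1 of 14 receptor and JAK-STAT genes tested was called lower. So were 1 of 12 sensing genes and 1 of 33 other interferon-induced genes, beside 5.55% of all genes. The receptor-axis inhibitor Socs1 was called lower, from a mean of 1.98 to 0.901 CPM, and Tmem173 from 17.5 to 6.41 CPM. Socs1 was 1.39, 0.707 and 0.600 CPM in clones 1 to 3, lowest in the clones with the steep GC correlation.

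Several members separated the LIFR KO clones from each other. Eif2ak2 was 31.0, 33.6 and 76.4 CPM in clones 1 to 3, and Ifih1 was 3.70, 2.62 and 9.01 CPM. Parp14 was 2.58, 1.58 and 10.2 CPM, which is 6.43-fold between the highest and the lowest clone, against 5.01, 4.52, 2.27 and 5.74 CPM in shPCBP1 lines. In each case clone 3 stood above the other clones. H2-D1 was 25.9, 19.8 and 10.2 CPM, so clone 3 lay below all shPCBP1 lines and clone 1 among them. H2-K1 was 46.2, 23.96 and 27.6 CPM, with clones 2 and 3 below every shPCBP1 line and clone 1 above them all. Irf3 was 36.1, 24.7 and 18.9 CPM, and Bst2 was 13.4, 5.53 and 5.70 CPM. The libraries that were low for Irf3, Bst2, Psmb10 and Isg20, clones 2 and 3, are those with the steep GC correlation, and these genes have 55.3% to 57.4% GC. Irf3, Bst2 and Psmb10 were picked here after their values were seen. Irf5, with 55.7% GC, was 1.47, 1.24 and 1.43 CPM in clones 1 to 3. The part of GC content was not tested. Without clone 1, 12 of 28 members were called, against 57.4% of all genes. Nlrc5, the other member that varied by 4-fold or more within a group while reaching 1 CPM, was 1.58, 0.606, 0.687 and 0.374 CPM in shPCBP1 lines, 0.974, 0.280 and 0.115 CPM in FAM3C KO and 0.322, 0.125 and 0.129 CPM in LIFR KO clones.

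**Figure D3:**
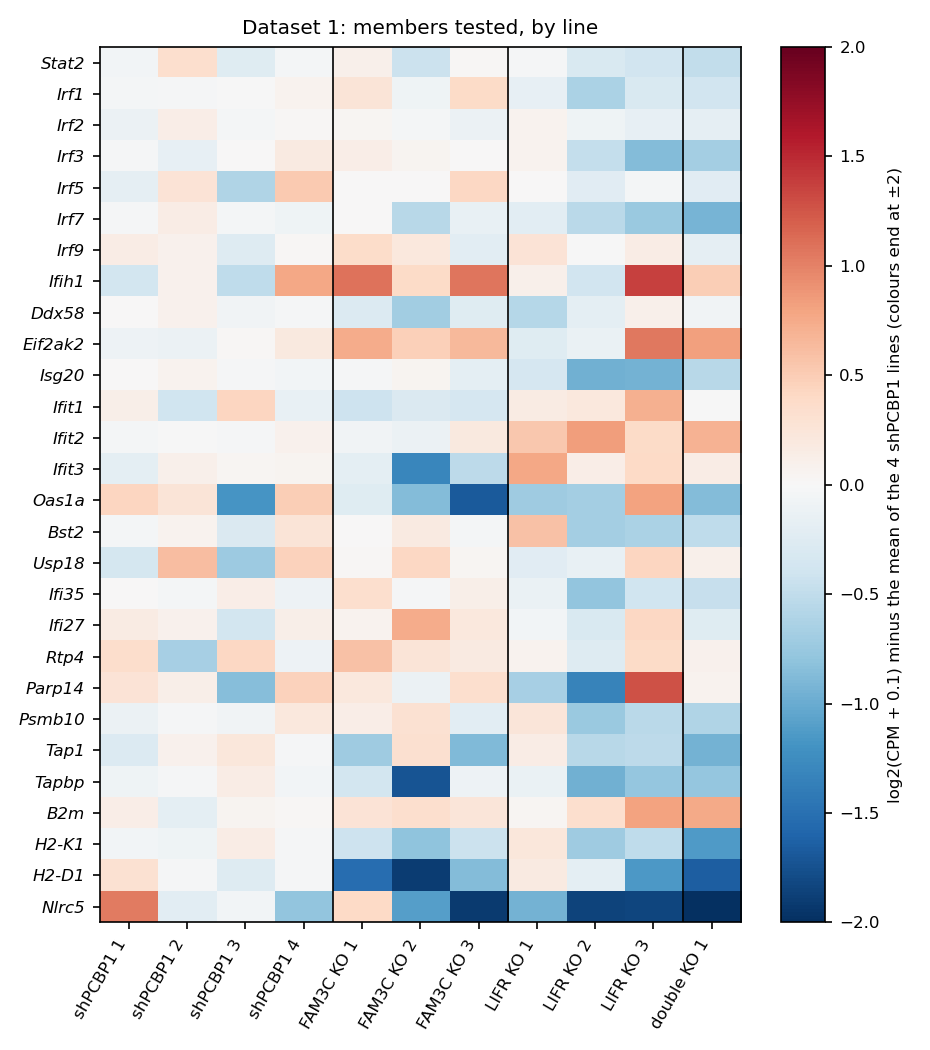
Difference of log2(CPM + 0.1) from the mean of the 4 shPCBP1 lines, by member (row) and line (column), with red for higher and blue for lower. H2-D1 is blue in all FAM3C KO clones, in LIFR KO 3 and in the double KO, and Eif2ak2 is red in the same 5 lines.

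Set directly against each other, the KO groups differed for 4 of the 28 members. Irf1 was 37.8, 29.7 and 40.8 CPM in FAM3C KO and 27.9, 20.3 and 25.5 CPM in LIFR KO clones (log2 difference 0.55, SE 0.15, adjusted p = 0.0592 by limma). Isg20 was 13.2, 13.9986 and 11.8 CPM against 10.6, 6.90 and 6.95 CPM (0.69, SE 0.17, adjusted p = 0.0480). Ifit2 differed by -0.58 (SE 0.14, adjusted p = 0.0441), and Ifit3, at 1.24, 0.520 and 0.961 CPM against 2.52, 1.58 and 1.93 CPM, by -1.11 (SE 0.31, adjusted p = 0.0645). The clones did not overlap for these 4 genes, nor did they for 2031 higher and 850 lower genes of the 12621 tested. The exact two-sided permutation p was 0.1 for each of the 4, the smallest that 3 against 3 clones allow. The rule called 6.83% of genes higher and 1.45% lower in FAM3C KO. Median-ratio rescaling, which moved the all-gene median by -0.13, ended the call on Irf1 (adjusted p = 0.0861) and turned the split of all genes called from 862 higher and 183 lower to 510 and 297. Quantile normalization ended the calls on Irf1 (adjusted p = 0.0903) and Isg20 (adjusted p = 0.0855) and called H2-D1 lower (-1.25, adjusted p = 0.0593). The GC correction ended all 4 calls (adjusted p = 0.0878 for Irf1, 0.0914 for Isg20, 0.397 for Ifit2 and 0.0965 for Ifit3) and left H2-D1 as the member called, at -1.32 (adjusted p = 0.0541) against -1.04 (adjusted p = 0.0903) without it.

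The double KO is a single library, so its values have no replicate check. H2-D1 was 7.17 CPM and H2-K1 17.99 CPM, and B2m was 110.3 CPM. For H2-D1 this lay within the FAM3C KO range of 6.04 to 12.5 CPM, and for H2-K1 below every other line of dataset 1. This library had the steep GC correlation (-0.70). In it, other genes within 2 Mb of H2-D1 and H2-K1 had median log2 differences of -0.706 and -0.685 from the shPCBP1 mean. Around H2-D1 that median was -0.09, -0.21 and -0.12 in FAM3C KO clones 1 to 3. The part of GC content and of the neighbourhood was not tested. Eif2ak2 was 65.3 CPM, above the FAM3C KO range of 51.2 to 61.6 CPM and below LIFR KO 3 at 76.4 CPM. Ifit2 was 42.4 CPM, within the LIFR KO range of 34.1 to 46.9 CPM. Pdcd1lg2, at 6.51 CPM, lay beside LIFR KO 3 at 6.22 CPM and the FAM3C KO clones, while LIFR KO 1 and 2 were at 0.107 and 0.125 CPM.

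Members were also set beside the genes around them, since neighbouring genes can change together. Within 2 Mb of Ifit2, other genes had a median log2 fold change of -0.65 (13 genes) in shPCBP1 cells and 0.54 (14 genes) in LIFR KO, where all 14 were above 0, against -1.63 and 0.58 for Ifit2 itself. In FAM3C KO, all 21 genes around Eif2ak2 were above 0, with a median of 0.52 beside 0.62 for Eif2ak2. By line, that median was 0.49, 0.48 and 0.51 in FAM3C KO clones 1 to 3, -0.06, 0.04 and 0.70 in LIFR KO clones 1 to 3, and 0.56 in the double KO. The genes around H2-D1 had medians of -0.16 in FAM3C KO and -0.06 in shPCBP1 cells of dataset 2, beside -1.43 and 2.85 for H2-D1. Ifit2 in LIFR KO and Eif2ak2 in FAM3C KO thus moved by about as much as their neighbours, and H2-D1 in FAM3C KO and in dataset 2 did not. In LIFR KO, H2-D1 was at -0.39 beside a median of -0.45, with 109 of 119 neighbours below 0. Isg20 in LIFR KO was at -0.75 beside a median of -0.37, with 33 of 34 neighbours below 0. Between FAM3C KO and LIFR KO, the genes around Ifit2 and Ifit3 had a median of -0.75, with 13 of 14 below 0, beside -0.58 and -1.11. Around Isg20 the median was 0.30 (28 of 34 above 0) beside 0.69, and around Irf1 0.12 (26 of 39 above 0) beside 0.55. The part of the neighbourhood in these results was not tested.

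**Figure D4:**
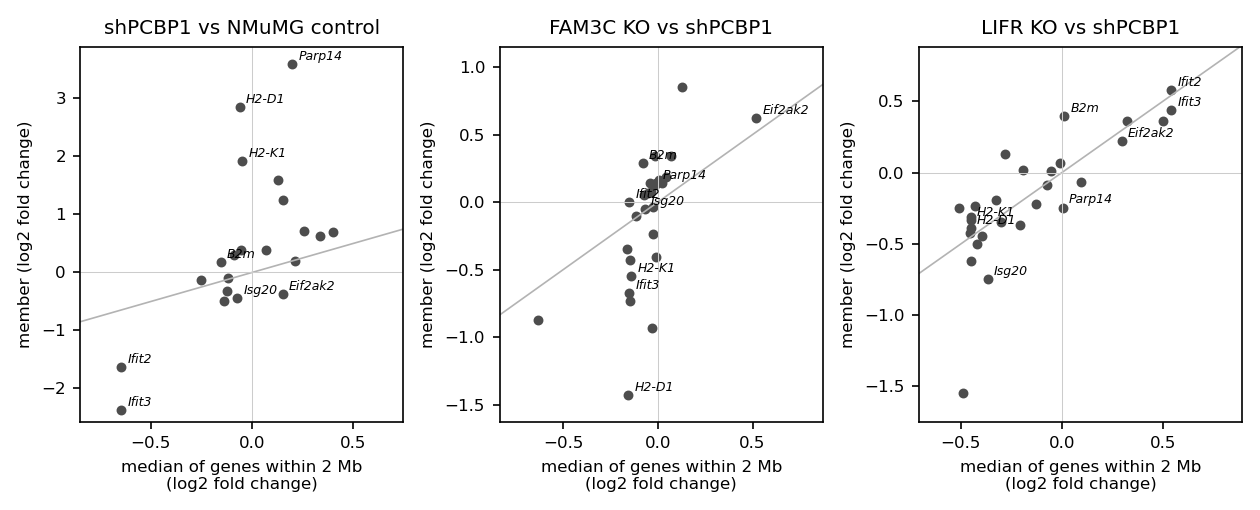
Log2 fold change of each tested member (vertical) against the median of other tested genes within 2 Mb (horizontal), with the line of equal values. Ifit2 in LIFR KO (0.58 beside 0.54) and Eif2ak2 in FAM3C KO (0.62 beside 0.52) lie near the line, and H2-D1 in shPCBP1 cells (2.85 beside -0.06) lies far above it.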

How the data were processed

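RNA was sequenced from 11 lines in dataset 1 and 4 libraries in dataset 2. Per the study's methods, rRNA-depleted directional libraries were aligned to GRCm38 (mm10) with Bowtie2 in Partek Flow and compared with DESeq2, and the annotation and counting rule are not given in the sources used here. The authors deposited CPM per gene and library, and 3 further columns of dataset 2, with group means and a fold change, were not used. In dataset 1, 83.3% to 84.8% of low values lay within 0.05 of a whole multiple of the library's lowest, and in dataset 2, after 0.0001 was taken off, 88.6% to 89.2% lay within 0.05 of a multiple of the commonest low value, too few to recover counts, so no count model was fitted. Coordinates and GC content were taken from GENCODE M21 (GRCm38).

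Genes averaging 0.5 CPM or more were tested on log2(CPM + 0.1) with limma 3.58.1 (trend) in R 4.3.3, Benjamini-Hochberg adjusted over all genes and called under 0.07. The 3 replicated groups of dataset 1 were fitted together, and the double KO was left out. Self-tests on simulated data preceded the fits. Members and lists were chosen with earlier results of these data known. Members are given in every library where called in dataset 1, where among the 3 largest called changes of their role group in dataset 2 at 1 CPM or more, or where lines of a group differed by 4-fold with a maximum of at least 1 CPM. Bst2, Irf3, Psmb10 in dataset 1, Tap1, Tapbp, Ddx58 in dataset 1, Pdcd1lg2 and the neighbour check were added after values were seen.

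Alternatives were other scalings, filters, pseudocounts, thresholds, GC correction, replicate blocks and leaving out each library.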

Additional observations from a re-analysis of the deposited data

Results flagged for a closer look

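In the 4 shPCBP1 lines of dataset 1, line 3 lay far from the others for 2 of the 28 members examined, where chance gives about 1 in 20. Oas1a was 0.206 CPM there, and Ifi27 was 2.78 CPM. FAM3C KO clones differed from those with LIFR KO for 4 members, with log2 differences of 0.55 for Irf1, 0.69 for Isg20, -0.58 for Ifit2 and -1.11 for Ifit3 by limma. The GC correction ended all 4 calls, and the 2 groups fitted alone and the replicate block each called 0 members.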

How the results depend on the processing

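In dataset 2, 18 members were called. Leaving out 1 library gave 16 to 19 calls, newly called members included, and 8115 to 8955 of all genes, and 10 members (3543 of all genes) were called when a fold change of at least 1.5 was required. B2m lost its call in 6 of 14 alternatives and Ddx58 in 7 of 14. The dataset 1 calls were less stable. For FAM3C KO against shPCBP1, 39 genes and no member were called, and leaving out 1 line gave 0 to 2 members and 3 to 359 genes (2 members without LIFR KO 1 or without LIFR KO 3). The minimum of 1 CPM gave 21 genes, the GC correction 1 member and 128 genes, and the 2 groups alone 3 members and 1048 genes. For LIFR KO against shPCBP1, 2 members and 816 genes were called, and leaving out 1 line gave 0 to 12 members and 5 to 7234 genes, both highest without LIFR KO 1. No member was called without LIFR KO 2, without FAM3C KO 1 or 3, or without any 1 shPCBP1 line. Median-ratio rescaling gave 488 genes, the GC correction 0 members and 296 genes, the 2 groups alone 0 and 35, LIFR KO 1 alone 0 and 281, adjusted p under 0.05 gave 359 genes, and the 1.5-fold minimum 1 member. For FAM3C KO against LIFR KO, 4 members and 1045 genes were called, and leaving out 1 line gave 0 to 8 members and 1 to 6673 genes, both highest without LIFR KO 1. The GC correction gave 1 and 678, the 2 groups alone 0 and 0, adjusted p under 0.05 gave 2 and 587, and the 1.5-fold minimum 2 members. The causes were not tested. No called member changed sign. Members that were not called did: in LIFR KO, 2 under median-ratio rescaling, 6 under quantile normalization and 4 under the GC correction, and between the KO groups 1, 6 and 2.

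With the replicate number as a block, 18 members and 9235 genes were called in dataset 2. The block gave 0 members and 15 genes for FAM3C KO, 0 and 10 for LIFR KO, and 0 and 0 between the KO groups, and the block with the GC correction gave 0 and 7, 0 and 7, and 0 and 0. Same-numbered samples correlated at -0.18 to 0.15 in dataset 1 and 0.051 in dataset 2, so they share only a number. An exact permutation test without 1 line cannot pass 0.05 in dataset 1, and so says nothing of stability.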

Other observations

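Samd9l, an interferon-induced gene outside the list of members and chosen after its values were seen, was 66.4 and 67.2 CPM in NMuMG controls and 15.4 and 15.2 CPM in shPCBP1 cells of dataset 2. In dataset 1 it was 16.8 to 28.8 CPM in shPCBP1 lines, 39.1, 31.4 and 41.0 CPM in FAM3C KO clones 1 to 3, 19.2, 25.2 and 106.2 CPM in LIFR KO clones 1, 2 and 3, and 73.8 CPM in the double KO.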
